A study of Mus musculus and Rattus norvegicus with 30 samples.

Results

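The rat single-exon assembled LncRNAs are stretches of transcribed DNA outside annotated exons of the same strand. The authors of this dorsal root ganglion (DRG) study built these LncRNAs from their reads and kept each as 1 unbroken exon. They were taken from the deposited rat catalogue as every identifier with exactly 1 exon row, which gave 1155 of 6658 assembled LncRNAs (17.3%). The other 5503 had 2 or more exons. The data were counts of read pairs in 4 sham and 4 SNT libraries. Each library came from the L5 DRG of 3 pooled male Wistar rats, collected 21 days after surgery. In spinal nerve transection (SNT) the left L5 spinal nerve was tied and cut, and in sham rats it was exposed and left whole. Pooling means that the spread between libraries is a spread between pools, not between rats. The ages of the rats are not given in the sources used here. Per the study's methods the RNA was poly-A selected and the libraries kept strand.

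Long noncoding RNAs (LncRNAs) are transcripts of at least 200 bases with no evident protein product. Most well-studied LncRNAs are spliced, and models of 1 exon are treated with caution in transcript assembly because unspliced pre-RNA, extended ends of known genes and stray genomic DNA can also give an unbroken stretch of reads. The DRG holds the cell bodies of sensory neurons, wrapped by satellite glia, together with Schwann cells, vessels and immune cells. Cutting the spinal nerve injures the axons of nearly all neurons of that ganglion, which then lower many ion channel and transmitter genes and raise genes of regrowth and stress. Bulk RNA does not tell fewer cells of a type from less RNA per cell.

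The libraries held 11.95 to 17.9 M counts (M stands for 1000000), and single-exon LncRNAs took 0.391% to 0.470% of them, where LncRNAs with more exons took 3.09% to 4.29%. A count of 3, taken as the floor for a library with no count, corresponds to 0.168 to 0.251 counts per M (CPM), and floors cover counting error only. Sham library 4 and SNT library 1 stood apart. On the first principal component of all tested features, which held 68.5% of the variance, they scored -9.24 and 1.12. The remaining sham libraries scored -59.3 to -45.7 and the remaining SNT libraries 39.7 to 62.4. Gal, a neuropeptide gene raised in injured neurons, stood at 283.9 CPM in sham library 4 against 82.7 to 90.1 CPM in the other sham libraries and 407.1 to 633.2 CPM after SNT. The counts of changed members and the values of the largest changes are therefore also given without these libraries. They were picked as the library of each group nearest to the other group, so leaving them out widens group differences by construction. Many annotated genes were listed at 0 in all 8 libraries, 27 of the 67 marker genes found by symbol among them, so marker lists are covered only in part.

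Single-exon LncRNAs were short. Their median length was 453 bases with quartiles of 292.5 and 1035 bases, against a median of 826.5 bases for the 2272 models of 2 exons, which lie just outside the rule, and 1693 bases for all models of more than 1 exon. A length under 300 bases was seen in 310 members (26.8%), and 146 (12.6%) were longer than 2000 bases. The longest were LncRNA171 (41143 bases, chr1:85741465-85782607, plus strand) and LncRNA471 (17786 bases, chr1:239651800-239669585, plus strand), and the shortest were LncRNA10032 (200 bases, chr9:6475200-6475399, plus strand) and LncRNA647 (201 bases, chr1:48905037-48905237, minus strand). All positions are on the rn6 build, as the deposited catalogue gives them. Members lay on chromosomes 1 to 9, X and Y, as did the rest of the catalogue, with 209 on chromosome 1 and 2 on chromosome Y. Between 13.5% and 19.0% of the assembled LncRNAs of each chromosome had a single exon. The plus strand held 594 members and the minus strand 561.

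The identifiers ran along the genome in order and then started again on chromosome 1, so that the members fell into 3 numbered runs. The first run, LncRNA9 to LncRNA6086, held 950 members with a median length of 455 bases. The second run, LncRNA6103 to LncRNA9992, held 174 members with a median of 548 bases. The third run, LncRNA10003 to LncRNA10039, held 31 members with a median of 260 bases, and none of them was longer than LncRNA10031 (1024 bases). In the third run 30 of 31 members were on the plus strand, where the first run had 51.3% and the second 44.3% there. The last identifier, LncRNA10039, on the minus strand, broke the order along the genome and was counted with the third run. The sources used here do not say what the runs stand for, and they are used below as a description of the catalogue.

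**Figure D1:**
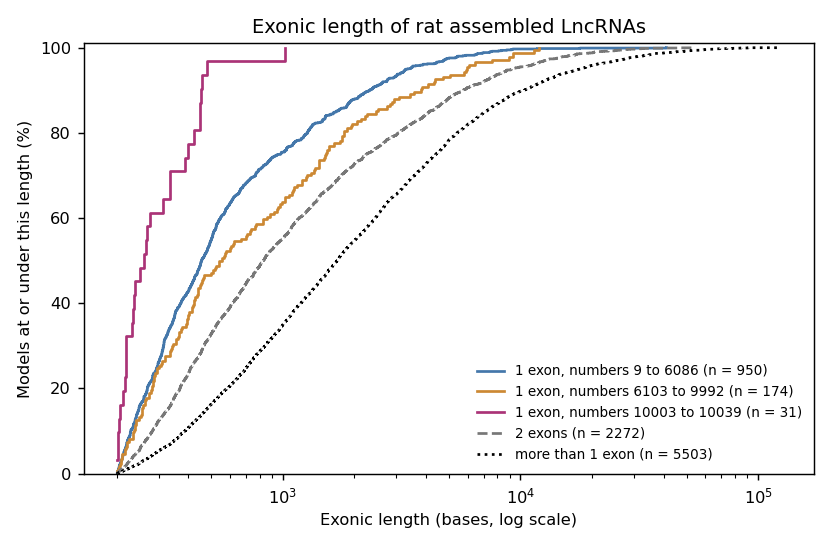
Cumulative share of models (%) at or under each exonic length (bases, log scale), for single-exon LncRNAs in the 3 runs of identifier numbers, for models of 2 exons and for all models of more than 1 exon. Single-exon curves lie to the left, with medians of 455, 548 and 260 bases against 826.5 and 1693 bases.

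A junction is a gap in read alignments that marks a splice, and 219118 rat junctions were deposited beside the catalogue. Although they were kept as single exons, 682 members (59.05%) had an end that lay directly next to a junction on the same strand. All of them belonged to the first run, of which they made up 71.8%. The junction touched the 5′ end alone in 355 members, the 3′ end alone in 287 and both ends in 40. Among models of more than 1 exon, 419 (7.61%) had an outer end next to a junction, and among models of 2 exons 267 (11.8%) did. Those 682 members had 855 contacts with 852 distinct junctions, and the median span over contacts was 5623 bases. The far end of the junction lay in another assembled exon in 24 cases (2.81%). In the other cases it led to sequence outside the catalogue, and which annotated genes lie there was not analysed here because no rat annotation was at hand. A junction lay inside the exon in only 2 members, against 2216 models of more than 1 exon.

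The second run differed in its surroundings. Of its 174 members, 162 (93.1%) lay wholly inside a junction of the same strand and 0 had an end next to one. In the first run 179 members (18.8%) lay inside a junction, and in the third run 3 (9.68%) did. On the opposite strand the share inside a junction was 22.8%, 20.7% and 25.8% in the 3 runs. No same-strand junction touched, crossed, enclosed or lay inside 180 members, 27 of them among the 31 members of the third run. Runs are part of the catalogue's numbering, so these shares describe how the catalogue is laid out and were not tested.

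**Figure D2:**
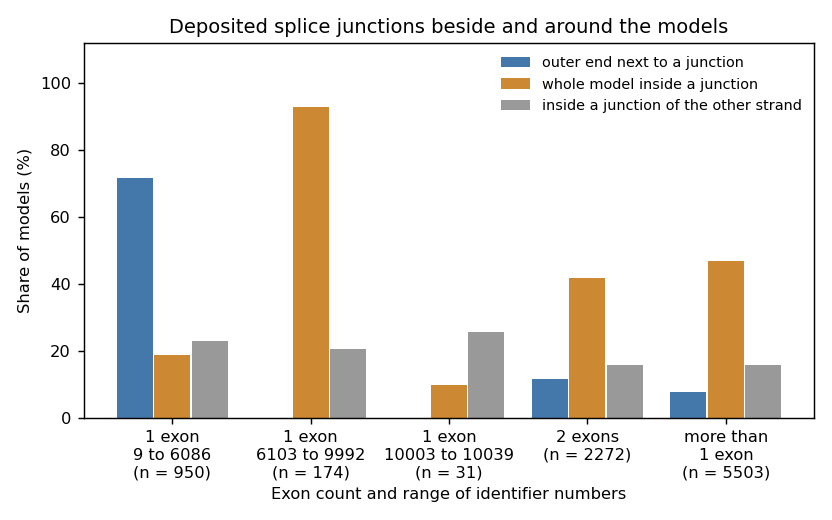
Share of models (%) with an outer end next to a deposited same-strand junction, wholly inside a same-strand junction, or inside a junction of the other strand, by exon count and by range of identifier numbers for single-exon LncRNAs. End contacts were found in 71.8% of the first run and in 0 members of the other runs, and 93.1% of the second run lay inside a junction.

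Most members stood alone. Another assembled LncRNA lay within 5000 bases on the same strand in 169 members (14.6%), against 12.3% of models of more than 1 exon, and the median distance was 94024 bases. The share was 36.2% in the second run and 10.8% in the first. Within 1000 bases there were 45 such members, and the closest was LncRNA3505, which began 2 bases from the 3-exon LncRNA3504. On the opposite strand 84 members (7.27%) overlapped the span of another assembled LncRNA, 30 of them with an exon of it, against 14.1% of models of more than 1 exon.

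Single-exon LncRNAs were scarce per library but dense per base. Levels are given as CPM and, where genes of different length are compared, as CPM per kb of exon. The median member stood at 0.52 ± 0.04 CPM in sham (SD, n = 4) and 0.445 ± 0.010 CPM after SNT (SD, n = 4), below the 0.820 ± 0.079 and 0.682 ± 0.033 CPM of models with more exons. Per kb the order turned. The study kept single-exon stretches without an overlapping junction only above a threshold of coverage per length. The level per kb of such members was thus partly set by selection. The median over members was 1.18, 1.0, 1.12 and 1.06 CPM per kb in sham libraries 1 to 4 and 0.918, 0.835, 0.950 and 0.931 CPM per kb in SNT libraries 1 to 4. The 4 sham libraries were all above the 4 SNT libraries. Models of more than 1 exon had medians of 0.504 to 0.655 CPM per kb, and in each library the single-exon median was 1.62 to 1.98 times theirs. By exon number the medians were 1.0 CPM per kb for 1 exon, 0.922 for 2 exons, 0.559 for 3 to 5, 0.275 for 6 to 10 and 0.356 for over 10. Models of 1 and of 2 exons thus lay close together on this scale. No p-value is given for a summary over members.

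In each library 1082 to 1107 of the 1155 members had at least 1 count, and 850 (73.6%) had at least 1 count in all 8 libraries. A mean of at least 1 CPM was reached by 397 members (34.4%) and of at least 10 CPM by 72. The third run held a large part of the counts. Its 31 members took 26.8% to 34.5% of all single-exon counts, and all 31 had counts in every library. The median of that run was 55.2 to 67.9 CPM per kb in sham and 41.4 to 60.2 CPM per kb after SNT, where the first run had 0.739 to 1.12 and the second 1.07 to 1.52 CPM per kb over the 8 libraries. The part of the study's coverage threshold in these levels was not tested.

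LncRNA10031 (chr8:127976597-127977620, plus strand) was the most abundant member, and its function is not known. It stood at 543.3, 470.7, 502.9 and 697.5 CPM in the sham libraries and at 648.0, 673.0, 754.7 and 639.2 CPM in the SNT libraries. Sham library 4 lay among the SNT libraries and the other sham libraries lay below all of them. The groups overlapped, and its log2 fold change of 0.29 ± 0.14 (SE) had an adjusted p-value of 0.142 (edgeR quasi-likelihood F test). Without sham library 4 it was 0.44, with an adjusted p-value of 0.0261. This member alone took 11.1% to 18.6% of all single-exon counts.

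The other abundant members differed in build. LncRNA171, also the longest, averaged 215.4 ± 42.4 CPM (SD, n = 8) but only 5.24 CPM per kb. LncRNA190 (chr1:91070490-91074375, plus strand, 3886 bases) averaged 132.2 CPM, LncRNA10015 (chr3:128444601-128445050, plus strand, 450 bases) 131.9 CPM, and LncRNA8546 (chr6:133665441-133666965, plus strand, 1525 bases) 109.9 CPM. Per kb, LncRNA10031 led with 601.7 ± 97.6 CPM (SD, n = 8), followed by LncRNA10038 (chrX:107844095-107844354, plus strand) with 387.2 ± 74.1 and LncRNA10015 with 293.1 ± 57.5. LncRNA10006 (chr1:165060506-165060771, plus strand) with 143.5 ± 19.1 and LncRNA10025 (chr5:132734522-132734979, plus strand) with 111.5 ± 12.3 CPM per kb came next. These 5 are all of the third run. Of the members named for their level, LncRNA10025 was the one whose groups did not overlap, at 53.3, 58.5, 56.6 and 54.3 CPM in sham and 48.4, 46.5, 49.4 and 41.6 CPM after SNT. All SNT libraries were the lower ones, and the log2 fold change of -0.26 ± 0.09 (SE) missed the threshold with an adjusted p-value of 0.0601 (edgeR). No other member named for its level passed either, with adjusted p-values of 0.142 to 0.676.

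**Figure D3:**
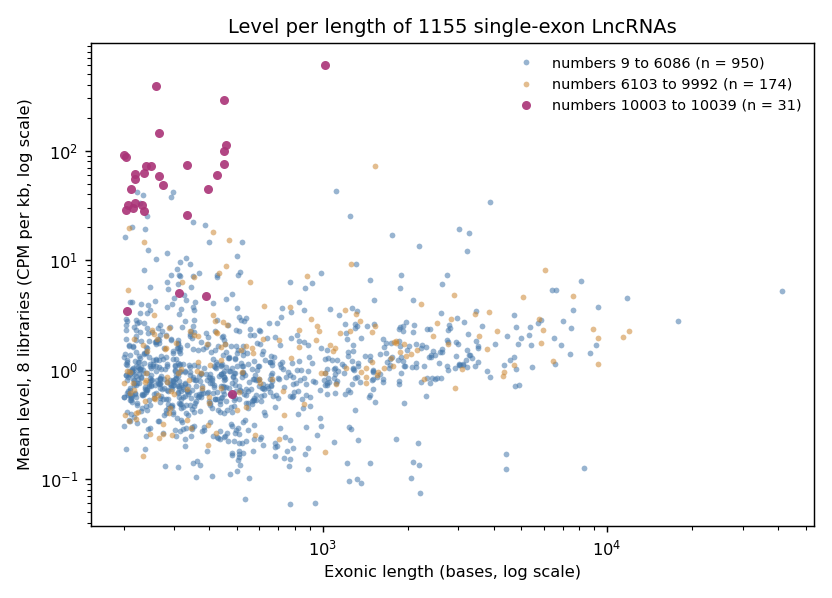
Mean level over 8 libraries (CPM per kb, log scale) against exonic length (bases, log scale) of the 1155 single-exon LncRNAs, coloured by range of identifier numbers. Most members lie near 1 CPM per kb at all lengths, and most of the 31 members of the last number range lie far above the rest at short lengths.

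The question of the rat arm was which transcripts change in the ganglion after the spinal nerve is cut. Single-exon LncRNAs that changed mostly fell. Of the 519 members that passed the filter on low counts, 102 (19.7%) were called at an adjusted p-value under 0.05 in edgeR, 85 lower and 17 higher after SNT. Of all 13690 features tested, 27.4 percent were called, 15.1 percent lower and 12.3 percent higher. Members called lower were 16.4% of those tested, near the background, and members called higher were 3.28%, below it. Neither gap was tested. Models of more than 1 exon had 17.9% called, 14.6% lower and 3.33% higher, so the shares of single-exon models were close to those of the rest of the catalogue. The median log2 fold change over tested members was -0.13, over models of more than 1 exon -0.02 and over all features 0.00. The falls ranged from -4.76 to -0.61 with a median of -1.31, and the rises from 0.73 to 2.69 with a median of 1.33.

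Without sham library 4 and SNT library 1, which lay between the groups, 195 of 546 tested members were called (35.7%), 139 lower and 56 higher, beside a background of 43.9 percent. Those libraries were picked for lying nearest to the other group, so a rise in calls without them was largely built in. Without sham library 4 alone 155 were called (27.7%, beside 34.6% of all features), and without SNT library 1 alone 155 (28.0%, beside 36.1%). Leaving out any of the other libraries lowered the count. It was 55 without sham library 1, 66 without sham library 2, 47 without sham library 3, 52 without SNT library 2, 58 without SNT library 3 and 59 without SNT library 4. Lower calls outnumbered higher calls in each of these fits. The other 636 members, with 4 to 96 counts summed over 8 libraries, were not tested.

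More of the longer members passed the filter on low counts. The filter passed 60 of 311 members (19.3%) of up to 300 bases, 85 of 323 (26.3%) over 300 and up to 500, 96 of 224 (42.9%) over 500 and up to 1000, 138 of 151 (91.4%) over 1000 and up to 2000 and 140 of 146 (95.9%) of longer members. Of those tested 10, 17, 7, 34 and 34 were called in the same order. By run, 88 of 385 tested members were called in the first run (22.9%), 9 of 104 in the second (8.65%) and 5 of 30 in the third (16.7%). In the second run the median log2 fold change was 0.12 and 35.6% of tested members had a negative value, against medians of -0.20 and -0.23 and shares of 64.4% and 66.7% in the first run and in the third. Within the first run, members with a junction at an end had 66 of 299 called (22.1%, 14 higher and 52 lower) and those without had 22 of 86 (25.6%, 1 higher and 21 lower). These differences between runs and classes were not tested.

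**Figure D4:**
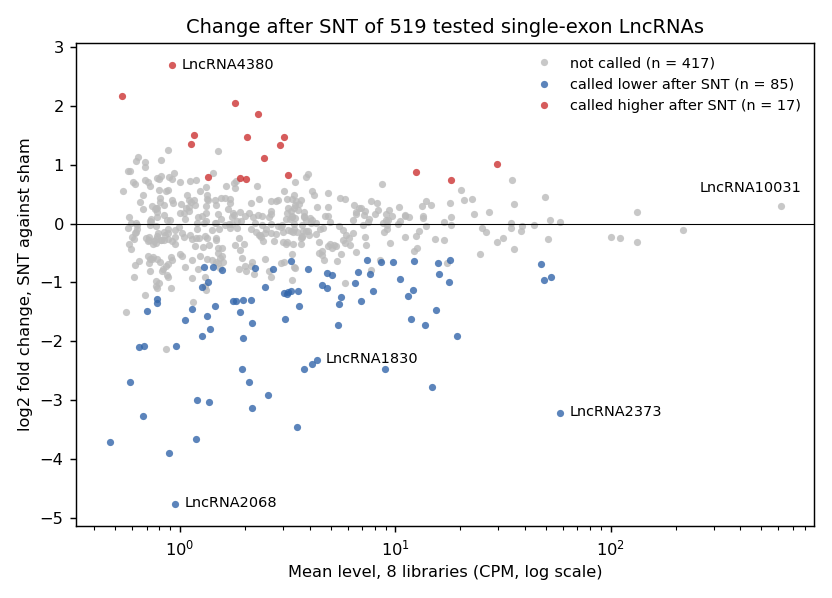
log2 fold change (SNT against sham) against mean level (CPM, log scale) of the 519 tested single-exon LncRNAs, with called members coloured by direction. The 85 called falls reach -4.76 and occur at low and high levels, and the 17 called rises reach 2.69.

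Neuronal genes fell in the same libraries. Of 15 sensory neuron markers, 9 had counts and all 9 were tested, and 6 were called, all lower, among them Scn10a, the Nav1.8 sodium channel of nociceptors, with a log2 fold change of -2.22 ± 0.63 (SE, adjusted p-value 0.0299, edgeR). Their summed level was 7968 to 11342 CPM in sham and 4490 to 8982 CPM after SNT. Injury-induced genes rose, with 8 of 10 tested called higher, and 4 of 16 were at 0 in all libraries. Their sum was 686.8 to 1819 CPM in sham and 2363 to 3500 CPM after SNT, with sham library 4 the highest sham value. T cell markers had 2 of 4 tested called higher, Cd3e and Cd4, and summed to 33.7 to 86.6 CPM in sham and 100.7 to 153.5 CPM after SNT. Nearly all of that sum was Cd4, at 32.3 to 74.1 and 94.5 to 141.3 CPM, and Cd3e was at 0.14 to 0.78 CPM in sham and 1.39 to 2.06 CPM after SNT. Macrophage markers had 1 of 4 tested called higher and summed to 46.9 to 142.8 and 125.9 to 210.6 CPM, but Cd68, Aif1 and Csf1r were at 0 in every library.

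The glial lists were thinly covered. Schwann cell markers had 3 of 4 tested called higher and summed to 2181 to 2739 and 2636 to 4403 CPM, with Mbp and Pmp22 at 0. Satellite glia markers had 1 of 2 tested called lower and summed to 7758 to 11844 and 5995 to 8177 CPM, with Fabp7 and Kcnj10 at 0. Nearly all of that sum was Apoe, which was not called (log2 fold change -0.33 ± 0.20, SE, adjusted p-value 0.229, edgeR). The called gene was Fbln5, at 72.5 to 94.6 CPM in sham and 43.0 to 72.5 CPM after SNT. Fibroblast and vessel markers (0 of 2 tested called) summed to 706.4 to 1692 and 1505 to 2165 CPM, with Col1a1 and Cdh5 at 0. Skeletal muscle markers (0 of 3 tested called) summed to 19.4 to 109.1 and 20.5 to 168.9 CPM, with Acta1 at 0. The part of these shifts in the changes of single-exon LncRNAs was not tested.

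Called members whose groups lay apart numbered 84 of the 519 tested, 70 lower and 14 higher, beside 21.6 percent of all features. Of these, 83 averaged 0.5 CPM or more, 69 lower and 14 higher. Of all members tested 109 (21.002%) had groups that did not overlap, beside 26.5 percent of all features. The functions of the members named next are not known.

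The largest fall was that of LncRNA2068 (chr3:52707774-52709705, plus strand, 1932 bases). It had 37, 29, 20 and 17 counts in sham, or 3.07, 1.77, 1.42 and 1.11 CPM, and 3, 1, 0 and 0 counts after SNT, or 0.190, 0.054, 0 and 0 CPM. All SNT libraries were below all sham libraries, and SNT library 1 was the highest of them. The fitted log2 fold change was -4.76 ± 0.66 (SE, adjusted p-value 0.0104, edgeR). With so few counts after SNT its size depends on the prior count of the fit. On the opposite strand its exon overlapped the 29-exon LncRNA7587, which also fell, from 96.1 ± 20.8 CPM in sham to 46.3 ± 9.18 CPM after SNT (SD, n = 4 each, log2 fold change -1.05 ± 0.18, SE, adjusted p-value 0.0107, edgeR).

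LncRNA2373 (chr3:48662072-48665335, minus strand, 3264 bases) had the deepest counts of the members that fell most. It stood at 109.9, 130.7, 120.4 and 59.5 CPM in sham and at 27.4, 4.14, 6.50 and 7.54 CPM after SNT. Sham library 4 was the lowest sham library and SNT library 1 the highest SNT library, and the groups still lay apart. The log2 fold change was -3.21 ± 0.54 (SE, adjusted p-value 0.0107, edgeR), and it ranged from -4.12 to -2.93 with each library left out in turn.

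In the other large falls sham library 4 was again the lowest sham library and SNT library 1 the highest SNT library. LncRNA2286 (chr3:171170600-171171727, plus strand) was at 1.33, 2.38, 1.99 and 0.977 CPM in sham and at 0.443, 0, 0 and 0 CPM after SNT, where only SNT library 1 had counts, with a log2 fold change of -3.90 ± 0.80 (SE). LncRNA2231 (chr3:146580753-146581084, plus strand) was at 4.23, 11.04, 6.84 and 3.32 CPM in sham and at 1.71, 0.163, 0.222 and 0.262 CPM after SNT, with -3.46 ± 0.67. The sham libraries of LncRNA2231 differed widely and still lay above every SNT library.

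LncRNA1390 (chr2:184179800-184180173, plus strand) was at 0.912, 1.40, 1.78 and 0.782 CPM in sham and at 0.443, 0, 0 and 0.066 CPM after SNT, a log2 fold change of -3.27 ± 0.75 (SE). LncRNA4041 (chr6:6782769-6784836, minus strand) was at 3.07, 5.43, 4.63 and 2.41 CPM in sham and at 1.20, 0.109, 0.333 and 0.131 CPM after SNT, with -3.14 ± 0.58. LncRNA4843 (chr8:46505324-46505747, plus strand) was at 3.40, 1.65, 2.21 and 1.24 CPM in sham and at 0.759, 0.109, 0.056 and 0.131 CPM after SNT, with -3.00 ± 0.62. In all 3 the SNT libraries other than library 1 had 6 counts or fewer. Adjusted p-values of these falls were 0.0114 to 0.0148 (edgeR), and each kept its call with any single library left out. LncRNA410, with a fitted log2 fold change of -3.66 (adjusted p-value 0.0198, edgeR), and LncRNA1571, with -3.72 (adjusted p-value 0.0106, edgeR), also fell. The groups overlapped in the former and the mean was under 0.5 CPM in the latter, and both were picked out after their values were seen.

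The largest rises were smaller and came from low sham levels. LncRNA4380 (chr7:66485273-66486366, plus strand, 1094 bases) was at 0.166, 0.122, 0.071 and 0.586 CPM in sham and at 1.33, 1.42, 1.45 and 2.23 CPM after SNT. Sham library 4 was the highest sham library and the groups lay apart. The log2 fold change was 2.69 ± 0.49 (SE, adjusted p-value 0.0110, edgeR). It lay on the opposite strand to the span of the 2-exon LncRNA4673, with no exon overlap, and the latter was at 1.23 ± 0.81 CPM in sham and 0.839 ± 0.201 CPM after SNT (SD, n = 4 each, log2 fold change -0.52 ± 0.43, SE, adjusted p-value 0.384, edgeR).

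LncRNA4495 (chr7:135869811-135870466, plus strand) was at 0.166, 0, 0.214 and 0.391 CPM in sham and at 0.822, 0.817, 0.667 and 1.24 CPM after SNT, a log2 fold change of 2.16 ± 0.56 (SE). LncRNA852 (chr1:170264562-170264874, minus strand) was at 0.663, 0.427, 0.427 and 2.41 CPM in sham and at 2.78, 5.06, 3.06 and 3.60 CPM after SNT, with 1.86 ± 0.50. In both, sham library 4 was the highest sham library, and in LncRNA852 it came close to SNT library 1. LncRNA4782 (chr7:142240142-142243059, minus strand) was at 0.746, 0.976, 1.07 and 3.52 CPM in sham and at 4.43, 4.41, 3.72 and 5.31 CPM after SNT, with 1.48 ± 0.42. LncRNA3964 (chr6:105775519-105778012, plus strand) was at 0.663, 0.915, 0.641 and 2.08 CPM in sham and at 2.21, 3.16, 2.95 and 3.80 CPM after SNT, with 1.47 ± 0.37. LncRNA77 (chr1:45268489-45268983, plus strand) was at 0.497, 0.427, 0.285 and 1.30 CPM in sham and at 1.58, 1.63, 1.72 and 1.57 CPM after SNT, with 1.35 ± 0.39. These 3 had sham library 4 nearer to the SNT libraries than to the other sham libraries.

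LncRNA2917 (chr4:6709481-6711148, minus strand) was at 1.24, 1.95, 0.926 and 2.41 CPM in sham and at 3.79, 3.70, 3.28 and 5.90 CPM after SNT, a log2 fold change of 1.33 ± 0.31 (SE). LncRNA5836 (chrX:151124477-151126749, plus strand) was at 1.91, 0.915, 1.64 and 1.82 CPM in sham and at 2.02, 4.25, 3.89 and 3.28 CPM after SNT, with 1.11 ± 0.30. SNT library 1 of LncRNA5836 stood just above the highest sham library. Adjusted p-values of these rises were 0.0164 to 0.0313 (edgeR). LncRNA4380 and LncRNA2917 kept their call with any single library left out, and the other 6 rises did not. LncRNA77 and LncRNA4782 lost their call without any 1 of sham libraries 1 to 3 or SNT libraries 2 to 4. LncRNA852 and LncRNA3964 lost it without any 1 of sham libraries 1 to 3 or SNT libraries 2 and 4, LncRNA5836 without any 1 of sham libraries 2 and 3 or SNT libraries 2 to 4, and LncRNA4495 without sham library 1, sham library 3 or SNT library 4.

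Without sham library 4 and SNT library 1 the changes of all 16 named members were larger, from -7.91 to -4.30 for the falls and from 1.40 to 3.77 for the rises. Larger changes were largely built in, since these libraries were picked for lying nearest to the other group. The value of -7.91, for LncRNA2286, is set by 3 SNT libraries with 0 counts and is no measure of size.

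**Figure D5:**
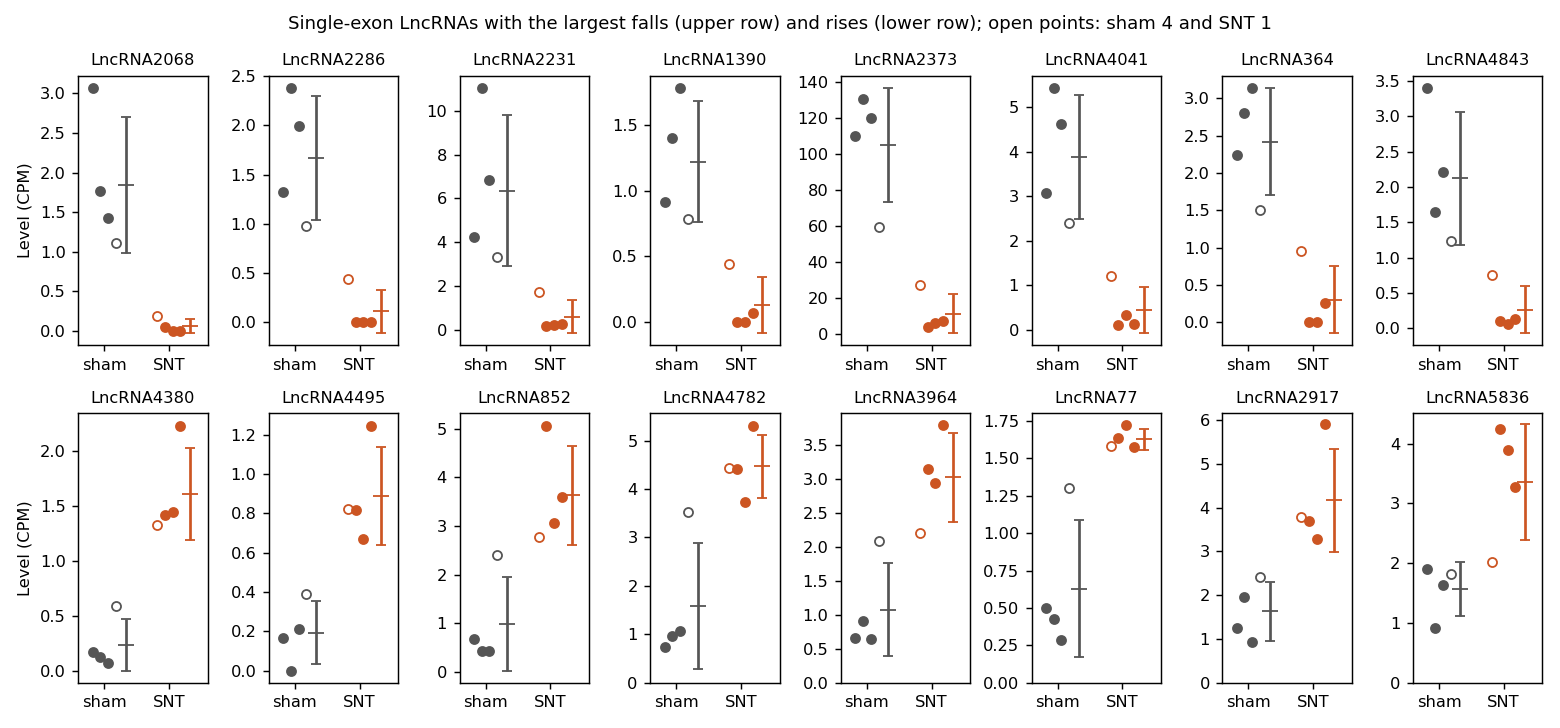
Level (CPM) in each of the 4 sham and 4 SNT libraries of the 8 single-exon LncRNAs with the largest falls (upper row) and the 8 with the largest rises (lower row), with the mean and SD (n = 4) to the right of the points. Open points are sham library 4 and SNT library 1, which lie nearest to the other group in most panels, as for LncRNA2373 at 59.5 and 27.4 CPM.

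Some members lay close to another assembled LncRNA on the same strand. Of the 45 members with a neighbour within 1000 bases, 14 had both models tested. In 8 both were called, and all 8 fell, as did 85 of the 102 called members. LncRNA4376 and LncRNA10028 were each other's neighbour, so that pair is counted from both sides. The 27.4 percent called of all features is a share of single features, not of pairs. LncRNA3505 and the 3-exon LncRNA3504, 2 bases away, fell by 1.91 and 1.84 on the log2 scale. LncRNA2286 lay 62 bases from the 3-exon LncRNA2285, which fell by 3.41, and LncRNA1390 lay 856 bases from the 3-exon LncRNA1389, which fell by 2.82. LncRNA3505 and its neighbour were picked out after their values were seen. A deposited junction at the 5′ end of LncRNA2286 spanned exactly the 62 bases to LncRNA2285. Whether such neighbours are otherwise pieces of 1 transcript was not tested. On the opposite strand 25 overlapping pairs had both models tested, 18 with the same sign and 7 with opposite signs. In 3 both were called, and all 3 pairs fell, the direction of most called members. No share of called pairs over all features is given here for either strand.

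The study placed some LncRNAs antisense of, or nearest to, pain genes and ion channel genes. Single-exon models made up 27 of them, 6 antisense. Of these 27 members, 13 were tested, and 3 were called (23.1%), all lower, beside the 27.4 percent called of all features. LncRNA364 (chr1:184188353-184188948, plus strand, 596 bases) is placed antisense of Calca, which codes for the peptide transmitter CGRP of nociceptors. It was at 2.24, 2.81, 3.13 and 1.498 CPM in sham and at 0.948, 0, 0 and 0.262 CPM after SNT, with every SNT library below every sham library. Its log2 fold change was -3.04 ± 0.76 (SE, adjusted p-value 0.0190, edgeR). The call was lost without sham library 3, without SNT library 4 and in DESeq2 (adjusted p-value 0.0557). It was also lost with libraries blocked by the first number of their titles (adjusted p-value 0.0514, edgeR). Calca itself stood at 935.6, 1195, 1169 and 780.9 CPM in sham and at 867.8, 36.3, 59.7 and 205.6 CPM after SNT. Here SNT library 1 lay within the sham range and the others below it, and the log2 fold change of -1.80 ± 0.82 (SE) was not called (adjusted p-value 0.121, edgeR). Without sham library 4 and SNT library 1 it was -3.44 (adjusted p-value 9.5e-04, edgeR), a fit in which a larger change was largely built in.

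LncRNA1830 (chr2:179580859-179582769, minus strand, 1911 bases) is placed nearest to Gria2, a subunit of AMPA glutamate receptors. The study picked it on these libraries, so its direction is not independent evidence. It was at 8.45, 7.81, 7.41 and 5.08 CPM in sham and at 2.28, 1.09, 0.611 and 1.83 CPM after SNT, a log2 fold change of -2.31 ± 0.35 (SE, adjusted p-value 0.0104, edgeR), and it kept its call with any library left out. Gria2 fell too, from 103.7 ± 21.2 to 27.9 ± 14.3 CPM (SD, n = 4 each, log2 fold change -1.89 ± 0.31, SE, adjusted p-value 0.0106, edgeR).

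LncRNA3127 (chr4:150249008-150249315, minus strand, 308 bases) is placed nearest to Ret, the receptor tyrosine kinase of the GDNF family. It was at 3.98, 7.20, 4.70 and 2.22 CPM in sham and at 1.64, 0.109, 0.056 and 0.655 CPM after SNT. The groups did not overlap, and the log2 fold change was -2.91 ± 0.70 (SE, adjusted p-value 0.0174, edgeR). Ret was at 691.4 ± 162.7 and 499.5 ± 116.6 CPM (SD, n = 4 each), with -0.47 ± 0.21 (SE, adjusted p-value 0.114, edgeR). The difference between the changes of LncRNA3127 and Ret was not tested.

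The other 10 tested members near such genes had log2 fold changes of -0.72 to 0.43 and adjusted p-values of 0.0719 to 0.755. LncRNA2300 (chr3:177223778-177224015, plus strand), next to the nociceptin receptor gene Oprl1, came nearest at 5.27 ± 0.74 CPM in sham and 3.83 ± 0.44 CPM after SNT (SD, n = 4 each, -0.46 ± 0.17, SE, adjusted p-value 0.0719, edgeR), and Oprl1 fell from 144.8 ± 30.2 to 90.1 ± 21.1 CPM (-0.69 ± 0.19, SE, adjusted p-value 0.0284, edgeR). LncRNA5148, antisense of Nt5e, the ecto-enzyme that makes adenosine, was at 1.86 ± 0.29 and 1.28 ± 0.29 CPM (SD, n = 4 each, adjusted p-value 0.111, edgeR). LncRNA4757, antisense of the lipid-sensing receptor gene Ppara, was at 3.66 ± 0.41 and 3.32 ± 0.37 CPM (SD, n = 4 each, adjusted p-value 0.576, edgeR). LncRNA481 and LncRNA6358, both placed nearest to the cation channel gene Trpm3, had log2 fold changes of 0.43 ± 0.23 and -0.35 ± 0.20 (SE), neither of them called.

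LncRNA255, near the proprotein convertase gene Pcsk6, had the lowest value of these 10, -0.72 ± 0.30 (SE, adjusted p-value 0.0982, edgeR). LncRNA10015, near the phospholipase gene Plcb1, had -0.30, LncRNA5105, near the kinase gene Map2k1, -0.17, LncRNA3844, near the repressor gene Klf11, 0.14, and LncRNA6668, near the orphan receptor gene Mrgpre, 0.30, all log2 fold changes not called.

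The remaining 14 members near such genes stayed under the filter, with means of 0.122 to 0.585 CPM over the 8 libraries. LncRNA5660, near the scaffold gene Frmpd4, was at 0.8288, 0.610, 0.356 and 0.261 CPM in sham and 0.253, 0, 0.111 and 0 CPM after SNT, and Frmpd4 fell from 115.7 ± 29.0 to 27.3 ± 20.2 CPM (SD, n = 4 each, -2.09 ± 0.42, SE, adjusted p-value 0.0123, edgeR). LncRNA6959 was at 0.124 ± 0.043 CPM in sham and 0.385 ± 0.063 CPM after SNT, and LncRNA5357, near Ramp1, which codes for a part of the CGRP receptor, was at 0.135 ± 0.127 and 0.493 ± 0.165 CPM (SD, n = 4 each). A setting with no filter on low counts tests all 1155 members and called 12.1% of them, beside 16.6% of all features. In it LncRNA6959, LncRNA5357 and LncRNA5660 passed the threshold with log2 fold changes of 1.63, 1.83 and -2.37. Their adjusted p-values were 0.0367, 0.0441 and 0.0456 (edgeR), and the other 11 did not pass. In DESeq2 the adjusted p-values of LncRNA6959, LncRNA5357 and LncRNA5660 were 0.102, 0.0614 and 0.0284, so LncRNA5660 alone was called there. The groups of these 3 members did not overlap, and each library held few counts. Further members under the filter were LncRNA623 (Srd5a1), LncRNA4864 (Cyp19a1), LncRNA6515 (Apoe), LncRNA218 (Nav2), LncRNA254 (Pcsk6), LncRNA7673 (Adra1d), LncRNA2204 (Plcb1), LncRNA2494 (Pak7), LncRNA2828 (Hrh1) and LncRNA4858 (Il18), with the gene they were placed at in parentheses.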

How the data were processed

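RNA from the L5 DRG of sham and SNT rats was sequenced in 8 libraries. Per the study's methods, the authors aligned paired reads with STAR to rn6 and counted read pairs by strand with HTSeq over annotated genes and LncRNAs assembled outside gene models extended by 1000 bases, with a minimum length of 200 bases. The authors restricted islands without an overlapping junction to the stretches found in all samples. They kept such models only above a threshold of coverage per length, so members are not a sample of all single-exon transcripts. The deposited rat table holds raw counts, 39281 features by 8 libraries, as the values bore out. Deposited exon and junction positions were read as given, and the deposited result table of fold changes and p-values was used only to pair gene symbols with identifiers. Of 219118 deposited junctions 4648 span over 100000 bases, and these were kept.

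The whole table was fitted in edgeR 4.0.16 (R 4.3.3) with its quasi-likelihood test after TMM and filterByExpr, two-sided, with Benjamini-Hochberg adjustment over all 13690 features tested. SE was derived from the log2 fold change and the F statistic. CPM uses the library total times the TMM factor. Near means within 5000 bases, and junction contact means directly adjacent bases. The script was tested on simulated data. Named members were the 5 highest by CPM and by CPM per kb, the 8 largest rises and falls among called members of at least 0.5 CPM without overlap, the 2 longest and 2 shortest, and members in the study's lists of pain and ion channel neighbours. Members and lists were chosen with earlier results of these data known. Libraries within a group differed by more than sampling noise. P-values measure the spread between pools. Alternatives were DESeq2 1.42.0, other scalings and filters, and libraries left out. No rat genome was at hand, so no sequence or gene position is given. Some items are not reported here.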

Additional observations from a re-analysis of the deposited data

Results flagged for a closer look

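In 7 of 83 groups of 4 libraries examined, 1 library lay far from the other 3 by Dixon's criterion at the 95% level, and chance alone gives about 1 in 20. SNT library 1 was high for LncRNA2231 (1.71 CPM, the others 0.163 to 0.262), LncRNA2373 (27.4 CPM, the others 4.14 to 7.54) and LncRNA4843 (0.759 CPM, the others 0.056 to 0.131). Sham library 4 was high for LncRNA852 (2.41 CPM, the others 0.427 to 0.663) and LncRNA4782 (3.52 CPM, the others 0.746 to 1.07). SNT library 4 was high for LncRNA4380 (2.23 CPM, the others 1.33 to 1.45) and SNT library 3 for LncRNA6358 (5.17 CPM, the others 4.03 to 4.17). The libraries apart for all but LncRNA4380 lay toward the other group.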

How the results depend on the processing

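The 102 called members, 85 lower and 17 higher, became 195 (139 and 56) without both libraries between the groups. That fit favours larger differences, as those libraries were picked for lying nearest to the other group. With 1 library left out the count ranged from 47 to 155, the lower calls from 44 to 123 and the higher calls from 3 to 35. The share of tested members called was then 8.61% to 28.0%, beside 10.6% to 36.1% of all features. The higher calls were 27 with no filter on low counts and 9 with at least 10 counts in every library. Totals were 137 of 801 tested in DESeq2 (17.1%, beside 26.7% of all features) and 106 of 519 with RLE size factors (20.4%, beside 27.8%). They were 99 of 519 with library totals alone (19.1%, beside 28.2%) and 140 of 1155 with no filter (12.1%, beside 16.6%). With the filter of 10 counts 70 of 357 were called (19.6%, beside 28.6%). The median log2 fold change was negative in every fit, at -0.15 to -0.065 with 1 library left out. The median level of members that passed the filter was 1.99 CPM per kb in sham and 1.73 after SNT, against 1.09 and 0.908 over all members. Members near another LncRNA were 45 within 1000 bases. With 1 library left out the log2 fold change of LncRNA171 ran from -0.22 to 0.043 (without sham library 1), of LncRNA3844 from -0.14 (without SNT library 4) to 0.34 and of LncRNA5105 from -0.29 to 0.024 (without sham library 3), none of them called in the main comparison. LncRNA10031 passed the threshold without sham library 4 (0.44) and LncRNA10015 without SNT library 1 (-0.48). With the replicate block on the first number of the library title 84 of 621 tested members were called (13.5%, 72 lower, 12 higher), beside 17.4% of all features. In the blocked fit LncRNA364, LncRNA77 and LncRNA5836 lost their call, with adjusted p-values of 0.0514, 0.0551 and 0.0756 (edgeR). Each number is shared by 1 sham and 1 SNT library, and the labels do not say what it stands for. Same-numbered libraries had correlations of -0.24 to 0.053 in their deviations from the group means. Whether the numbers mark a shared batch was not tested. The cause of these shifts was not tested. The 636 members not tested had a median of 29 counts over 8 libraries, and their level, length and depth were not separated.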
